A study of Mus musculus with 6 samples.

Results

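The IL-6 family of cytokines signals through receptor complexes that share the gp130 chain, encoded by Il6st. A further chain joins gp130, such as the IL-6 receptor (Il6ra), the LIF receptor (Lifr) or the oncostatin M receptor (Osmr). This activates JAK kinases and the transcription factor STAT3. STAT3 induces Socs3, an inhibitor that binds gp130 and shuts the signal down. In fat, IL-6 is made by stromal cells, macrophages and adipocytes. IL-11, LIF and oncostatin M act on stromal cells, and IL-11 and oncostatin M can limit their conversion to adipocytes.

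The genes described here are the ligand genes Il6, Lif, Il11, Osm and Clcf1, the receptor genes Il6st, Il6ra, Lifr and Osmr, and Socs3. They were chosen by name, with earlier results of these data known, as array probes whose RefSeq accession belongs to one of these genes. All 10 had a probe, and there were 12 such probes among the 55681 on the array, with 3 for Lifr and 1 for each other gene. All 10 genes stood well above background on each of the 6 arrays, so all entered the comparison with 25777 genes and unnamed transcripts.

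The study treated male mice of the strain C57BL/6JHamSlc-ob/ob, which lack functional leptin and become obese, so the deficiency is common to both groups. The propolis group received Brazilian propolis ethanol extract, a bee product, at 100 mg/kg by intraperitoneal injection 2 times a week for 12 weeks. The vehicle group received the solvent, with a low concentration of DMSO and ethanol, over the same 12 weeks. RNA came from stromal and vascular cells of the mesenteric fat, those left after collagenase digestion and red cell lysis, and each group had 3 samples on 1-colour arrays. The age of the mice and the number behind each sample are not given in the sources used here, so p-values measure the spread between these samples.

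All values below are log2 intensities minus the 75th percentile of the same array, each ± is an SD with n = 3, and a difference is propolis minus vehicle on that log2 scale. A gene was said to rise or fall only at an adjusted p under 0.05 in limma, with Benjamini-Hochberg adjustment over all 25777. By that rule 215 genes, 0.834%, differed in the whole table, and with each array left out in turn the number was 11 to 94. The 75th percentile of intensity ranged from 511.6 to 729 in propolis arrays and from 459.4 to 621.1 in vehicle arrays. Vehicle 1, vehicle 2, propolis 1 and propolis 2 lay on slide 1, and vehicle 3 and propolis 3 on slide 2. All 10 fibroblast and progenitor markers and all 9 measured macrophage markers stood well above background on every array, as did all 8 adipocyte genes. Of the vehicle arrays, vehicle 2 was high in pancreatic acinar genes, whose mean was 4.13 there and -5.33 to -4.21 on the other 5 arrays. Vehicle 3 was high in intestinal epithelial genes, with a mean of 4.71 there. That mean was -0.42 on propolis 1, the next highest array, and -3.59 to -2.11 on the remaining arrays. Vehicle 1 and vehicle 2 were high in B cell markers, with means of -1.01 and 1.00. The B cell mean was -2.90 on vehicle 3 and -3.76 to -2.51 on the propolis arrays. For the 10 genes, their median and the genes that rose, differences are also given with vehicle 2 and vehicle 3 removed. Vehicle 1 is then the only vehicle array.

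The upstream 250 bases of 4 genes are shown because they are the promoters of the 2 genes of the family with the largest differences, of the feedback gene Socs3, and of Ctf1, the relative described below that rose. They are RefSeq sequences of GRCm38.p6, a later assembly than the mm9 build of the array design, and they end at the base before the annotated start. Capitals mark motifs found by a search of both strands. The motifs were TTCNNNGAA for STAT proteins, GGANTTTCC for NF-kB and TGANTCA for AP-1, and no matches overlapped.
Il6, chr5:30012864-30013113, plus strand: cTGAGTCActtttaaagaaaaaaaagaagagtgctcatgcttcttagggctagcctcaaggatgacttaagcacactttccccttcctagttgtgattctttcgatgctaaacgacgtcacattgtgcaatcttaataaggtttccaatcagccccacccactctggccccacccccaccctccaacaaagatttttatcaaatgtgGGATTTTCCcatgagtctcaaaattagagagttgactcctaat
Il11, chr7:4778142-4778391, minus strand: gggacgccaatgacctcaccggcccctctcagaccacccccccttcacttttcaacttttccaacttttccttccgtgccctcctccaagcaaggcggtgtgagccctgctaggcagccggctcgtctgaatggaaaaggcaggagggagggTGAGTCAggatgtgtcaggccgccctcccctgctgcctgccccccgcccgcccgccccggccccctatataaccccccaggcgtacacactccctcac
Socs3, chr11:117969367-117969616, minus strand: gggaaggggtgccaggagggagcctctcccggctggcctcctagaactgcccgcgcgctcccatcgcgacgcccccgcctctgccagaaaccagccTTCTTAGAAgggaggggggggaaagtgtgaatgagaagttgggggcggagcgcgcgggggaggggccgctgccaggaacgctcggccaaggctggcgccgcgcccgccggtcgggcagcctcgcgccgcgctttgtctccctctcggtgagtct
Ctf1, chr7:127712453-127712702, plus strand: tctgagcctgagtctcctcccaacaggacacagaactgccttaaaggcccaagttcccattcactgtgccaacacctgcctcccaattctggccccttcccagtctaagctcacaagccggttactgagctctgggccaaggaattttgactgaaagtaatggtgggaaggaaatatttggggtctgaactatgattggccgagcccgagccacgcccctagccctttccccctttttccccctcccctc

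The NF-kB match in the Il6 promoter began 43 bases before the start and its AP-1 match 249 bases before it. The AP-1 match of Il11 began 98 bases before the second of its 2 annotated starts, and the STAT match of Socs3 154 bases before its start. The 250 bases before the first Il11 start held 0 of the motifs. RefSeq promoters were matched for 8 of the 10 genes, the exceptions being Osm and Clcf1. These 8 genes had 10 promoters in all. Of the 8, the AP-1 motif was found in a promoter of 3 (Il6, Il11 and Lif), the NF-kB motif of 1 and the STAT motif of 1. Those counts are of genes, while the shares that follow are of single promoters. Among all 32851 promoters in the table, 6.75% held the AP-1 motif, 1.07% the NF-kB motif and 7.02% the STAT motif in the same window.

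The comparison of propolis with vehicle asked whether expression in these cells differs after the treatment. None of the 10 genes passed the test over all genes in limma. The means of 8 were higher after propolis and those of Clcf1 and Il6ra were lower. The median difference of the 10 was 0.52, where that of all genes tested was -0.00408, of which 49.6% were higher. The median of the 10 was 0.18 with vehicle 2 and vehicle 3 removed, 0.31 to 0.66 with 1 array removed (lowest without propolis 1) and 0.10 with array quality weights. The largest differences were those of the ligand genes Il6 and Il11, while the genes for gp130, the LIF receptor and the IL-6 receptor differed by 0.13, 0.10 and -0.29. At an unadjusted p under 0.05, 2 of the 10 (Il6 and Il11) were higher, where 7.24% of all genes were, and 0 were lower, where 4.48% were. The groups did not overlap for 2 of the 10, Il11 and Osmr, both higher, where 10.8% of all genes were higher without overlap. For 0 of the 10 was propolis lower without overlap, where 6.62% of all genes were.

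**Figure D1:**
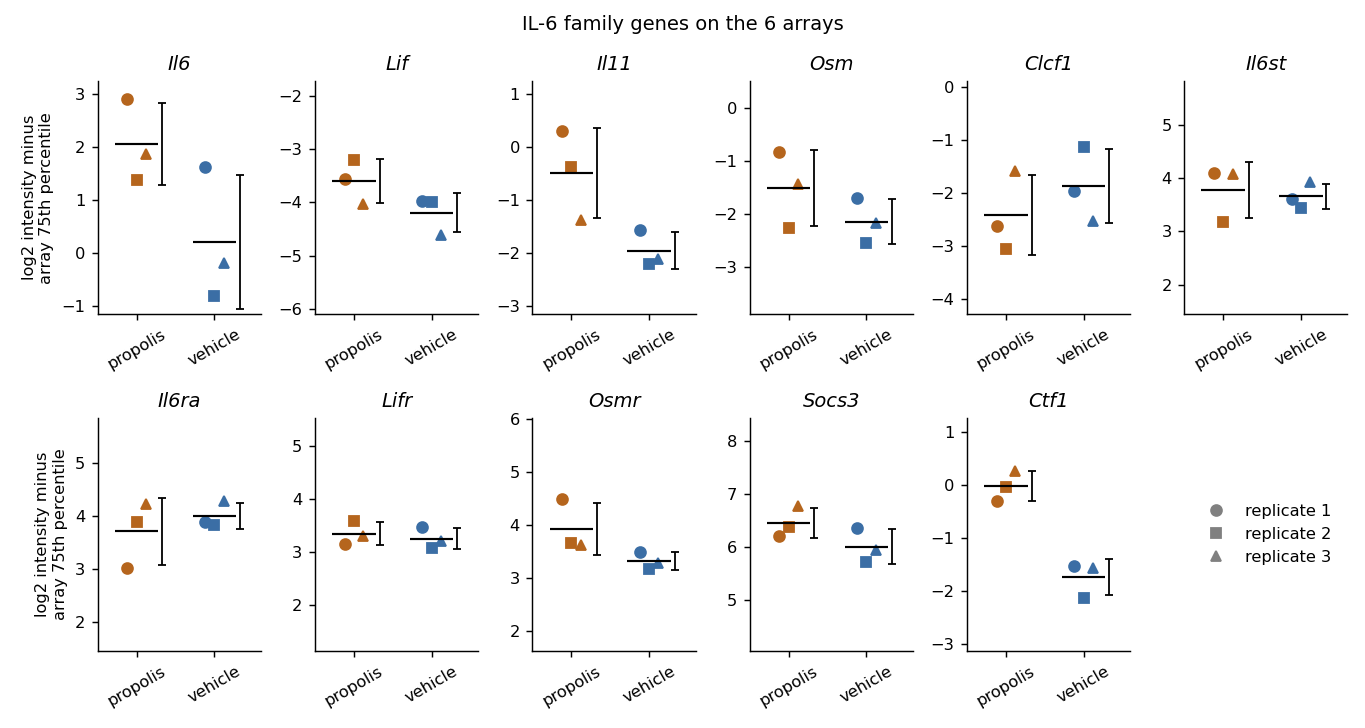
Log2 intensity minus the array's 75th percentile for the 10 genes and Ctf1, with propolis left of vehicle, a symbol per replicate, the group mean as a line and an SD bar (n = 3), each panel spanning the same number of log2 units. Vehicle 1 lies within the propolis range for Il6, and for Ctf1 all 3 propolis arrays lie above all 3 vehicle arrays.

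Il6, the cytokine that gives the family its name and a marker of inflamed fat, measured 2.90, 1.38 and 1.86 in propolis 1, 2 and 3, against 1.63, -0.82 and -0.20 in vehicle 1, 2 and 3. Vehicle 1 lay between propolis 2 and propolis 3, so the groups overlapped, and the spread within vehicle was the widest of the 10 genes. The group means were 2.05 ± 0.78 in propolis and 0.20 ± 1.27 in vehicle. The difference of 1.84 (95% interval 0.16 to 3.53), or 3.59-fold, had an unadjusted p of 0.0364 in limma and did not pass (adjusted p = 0.381). It was 1.74 on slide 1 and 2.06 on slide 2. The 2 low arrays, vehicle 2 and vehicle 3, are those high in acinar or intestinal genes. Propolis 1, the highest for Il6, had the next highest mean of intestinal genes, -0.42. Any part of such tissue in the Il6 difference was not tested. The difference was 1.33 without vehicle 2, 1.64 without vehicle 3, 2.56 without vehicle 1 and 1.42 without propolis 1. Without vehicle 2 and vehicle 3 together it was 0.42, which leaves only vehicle 1, the highest vehicle array for Il6.

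Il11 encodes interleukin-11, a stromal cytokine known for its part in fibrosis. It measured 0.30, -0.37 and -1.38 in propolis 1, 2 and 3, against -1.56, -2.21 and -2.10 in vehicle 1, 2 and 3. All propolis arrays were above all vehicle arrays, although propolis 3 exceeded vehicle 1 by little. The means were -0.49 ± 0.85 in propolis and -1.96 ± 0.35 in vehicle. Its difference of 1.47 (95% interval 0.40 to 2.54), or 2.77-fold, had the lowest p of the 10 and did not pass (adjusted p = 0.257). The difference was 1.85 on slide 1 and 0.72 on slide 2, and 1.07 without vehicle 2 and vehicle 3 together.

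The other 3 ligand genes differed by less. Lif, encoding leukaemia inhibitory factor, measured -3.56, -3.20 and -4.02 in propolis 1, 2 and 3, against -3.98, -3.99 and -4.62 in vehicle 1, 2 and 3. Propolis 3 lay just below vehicle 1 and vehicle 2, and the difference was 0.60 (95% interval -0.10 to 1.31, adjusted p = 0.510), at 0.60 on both slides. It was 0.39 without vehicle 3, 0.41 without propolis 2, 0.38 with vehicle 2 and vehicle 3 removed and 0.14 with normexp background correction. The Lif signal was dim, where the lowest signals well above background were -5.82 to -5.26 over the arrays. Osm encodes oncostatin M, a product of macrophages and neutrophils that signals to stromal cells. It measured -0.83, -2.26 and -1.43 in propolis 1, 2 and 3, against -1.70, -2.55 and -2.17 in vehicle 1, 2 and 3. Propolis 2 was lower than 2 of the vehicle arrays, and the difference was 0.63 (95% interval -0.35 to 1.62, adjusted p = 0.647). Removing propolis 1 gave 0.30, removing propolis 2 gave 1.01 and removing vehicle 2 and vehicle 3 gave 0.19. Clcf1, whose product signals through the ciliary neurotrophic factor receptor, had the lowest difference, -0.55 (95% interval -1.75 to 0.64, adjusted p = 0.749). It measured -2.62, -3.05 and -1.59 in propolis 1, 2 and 3, against -1.95, -1.12 and -2.52 in vehicle 1, 2 and 3, with opposite differences on the slides, -1.30 on slide 1 and 0.93 on slide 2. The Clcf1 difference was -0.18 without vehicle 2, -0.24 without propolis 2, -0.88 without vehicle 3, -0.97 without propolis 3 and -0.46 with both vehicle arrays removed.

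**Figure D2:**
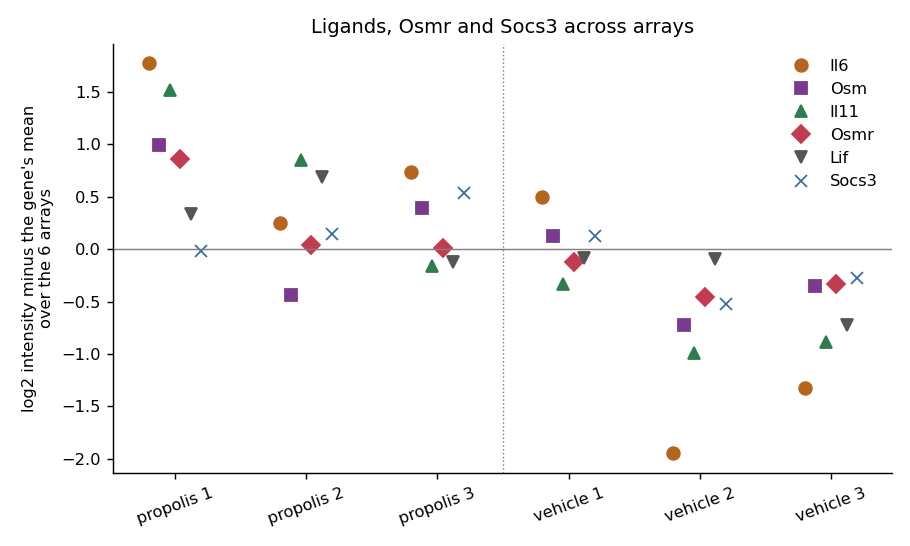
Log2 intensity of 5 ligand and receptor genes and Socs3 on each array, propolis arrays left of vehicle arrays, as the deviation from each gene's mean over the 6 arrays. Il6, Osm, Il11 and Osmr are highest on propolis 1 and lowest on vehicle 2, while Lif and Socs3 are highest on another propolis array.

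The signal-transducing receptor chain gp130 (Il6st) measured 4.10, 3.18 and 4.09 in propolis 1, 2 and 3, against 3.61, 3.45 and 3.92 in vehicle 1, 2 and 3. Propolis 2 was the lowest array of all, and the difference of 0.13 (95% interval -0.61 to 0.86, adjusted p = 0.914) was smaller than the spread within propolis. Il6ra, the chain that binds IL-6, measured 3.01, 3.87 and 4.22 in propolis 1, 2 and 3, against 3.88, 3.82 and 4.28 in vehicle 1, 2 and 3. Only propolis 1 stood below the vehicle range, and the difference of -0.29 (95% interval -1.12 to 0.53, adjusted p = 0.807) was 0.05 without that array. Lifr is a chain shared by LIF and cardiotrophin-1. Its 3 probes differed by 0.23, 0.10 and 0.05, with adjusted p of 0.825, 0.898 and 0.962 in limma when every probe was fitted. The brightest, which stands for the gene, measured 3.16, 3.59 and 3.30 in propolis 1, 2 and 3, against 3.46, 3.08 and 3.20 in vehicle 1, 2 and 3 (95% interval of the difference -0.38 to 0.58). With vehicle 2 and vehicle 3 removed, Il6st differed by 0.18, Il6ra by -0.18 and Lifr by -0.12.

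Osmr, which pairs with gp130 to bind oncostatin M, was the receptor with the largest difference. It measured 4.48, 3.66 and 3.63 in propolis 1, 2 and 3, against 3.50, 3.17 and 3.28 in vehicle 1, 2 and 3. All propolis arrays were above all vehicle arrays, with propolis 1 well apart from the other two. The difference of 0.61 (95% interval -0.06 to 1.28), or 1.52-fold, did not pass (adjusted p = 0.476) and was 0.33 without propolis 1 and 0.42 without vehicle 2 and vehicle 3 together.

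Socs3, the feedback inhibitor induced by STAT3, measured 6.22, 6.37 and 6.77 in propolis 1, 2 and 3, against 6.36, 5.71 and 5.95 in vehicle 1, 2 and 3. Vehicle 1 again lay inside the propolis range, as it did for Il6. The means were 6.45 ± 0.29 in propolis and 6.01 ± 0.33 in vehicle, and the difference of 0.45 (95% interval -0.15 to 1.04) did not pass (adjusted p = 0.580). It was 0.26 on slide 1, 0.82 on slide 2 and 0.09 without vehicle 2 and vehicle 3 together.

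**Figure D3:**
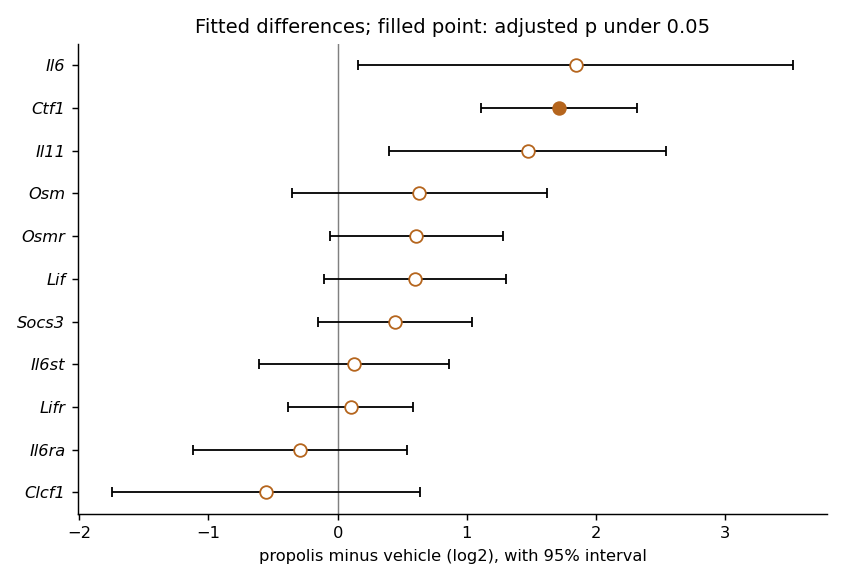
Fitted log2 differences, propolis minus vehicle, with 95% intervals from limma, ordered by size with the highest at the top. The intervals of Il6, Il11 and Ctf1 lie above 0, and the filled point, Ctf1, is the one with an adjusted p under 0.05.

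Of the other genes of the family, Ctf1 rose. It encodes cardiotrophin-1, a ligand of the gp130 and LIF receptor pair known for protecting heart muscle cells. It measured -0.31, -0.04 and 0.26 in propolis 1, 2 and 3, against -1.53, -2.13 and -1.57 in vehicle 1, 2 and 3. The lowest propolis array was above the highest vehicle array by more than either group's spread. The means were -0.03 ± 0.29 in propolis and -1.74 ± 0.34 in vehicle, and the difference of 1.71 (95% interval 1.11 to 2.32), or 3.28-fold, passed narrowly in limma (adjusted p = 0.0476). It was 1.65 on slide 1 and 1.83 on slide 2. With 1 array left out it was 1.52 to 1.85 and did not pass in any of the 6 settings (adjusted p from 0.0857 to 0.166), and with both vehicle 2 and vehicle 3 removed the difference was 1.50 (adjusted p = 0.618). Its close relative Ctf2 differed by -0.06 (adjusted p = 0.952). Ctf2 was dim, from -5.08 on vehicle 3 to -4.22 on vehicle 2. The lowest signals well above background were -5.82 to -5.26 over the arrays, so the small Ctf2 difference says little.

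Of 11 further ligand and receptor genes, Ctf1 included, 10 were tested, 1 rose and 0 fell, with 5 higher and 5 lower means and a median difference of 0.05. The 0 falls stand beside 1 gene that was lower at an unadjusted p under 0.05 in limma, Il27ra, the IL-27 receptor chain, at -0.95 (adjusted p = 0.334). Ctf2, Il27ra and Il11ra1 were singled out after their values were seen. Il11ra1, the ligand-binding receptor of IL-11, measured 6.09, 5.99 and 5.93 in propolis 1, 2 and 3, against 5.52, 5.54 and 5.46 in vehicle 1, 2 and 3. The groups stood apart with little spread, and the difference of 0.50 (95% interval 0.13 to 0.87) did not pass (adjusted p = 0.265). Il31 was not well above background on any array.

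Among 16 genes of JAK-STAT signal transduction and its brakes, limma called 0, with 1 higher and 1 lower at an unadjusted p under 0.05 and a median of -0.03. Over all genes, 7.24% were higher and 4.48% lower at that p, and the counts of each list below stand beside these shares. Stat3, the main transcription factor of the pathway, measured 4.64, 4.74 and 4.40 in propolis 1, 2 and 3, against 4.36, 4.05 and 3.73 in vehicle 1, 2 and 3. The groups did not overlap, by a narrow margin between propolis 3 and vehicle 1, and the difference of 0.55 did not pass (adjusted p = 0.414). Ptpn6, encoding the phosphatase SHP-1 of blood cells, differed by -0.49 (adjusted p = 0.390), Ptprc, the leukocyte antigen CD45, by -0.45 (adjusted p = 0.466) and Socs2 by 0.43 (adjusted p = 0.470). The 4 genes of receptor shedding, which frees soluble IL-6 receptor, had a median of -0.00217, and limma called 0 of them, with 0 at an unadjusted p under 0.05. Adam10 and Adam17, the sheddases, differed by 0.29 and -0.12, and their regulators Rhbdf1 and Rhbdf2 by -0.05 and 0.04.

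**Figure D4:**
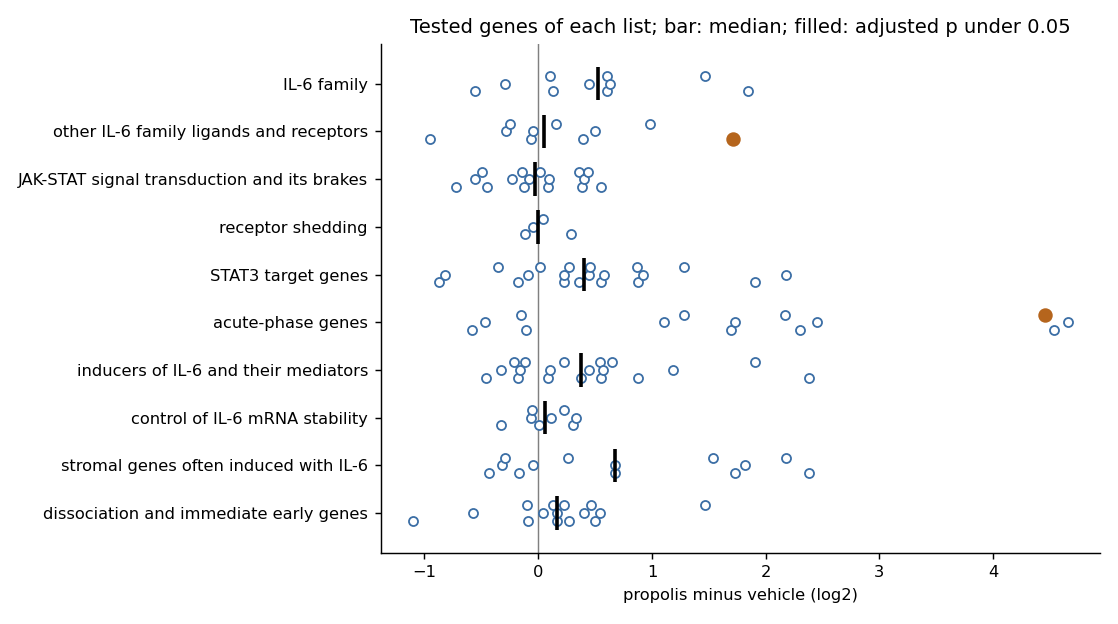
Log2 differences, propolis minus vehicle, of the tested genes of the IL-6 family and of 9 pathway lists, a point per gene with the list median as a bar except for the acute-phase genes, where Saa2, Fgb and Fgg have no measured fold. The filled points, Ctf1 and Saa2, are those with an adjusted p under 0.05.

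The 20 genes that STAT3 is known to induce had a median of 0.40, with 15 higher and 5 lower means, and the median was 0.21 with vehicle 2 and vehicle 3 removed and 0.10 with array weights. In limma 0 passed, and 5 were higher and 1 lower at an unadjusted p under 0.05, where 7.24% and 4.48% of all genes were. Il4ra, the IL-4 receptor chain, differed by 1.91 (adjusted p = 0.0962), Timp1, an inhibitor of matrix proteases, by 2.18 (adjusted p = 0.199) and Fosl2 by 0.92 (adjusted p = 0.310). Ccnd1, the cell cycle gene for cyclin D1, went the other way at -0.82 (adjusted p = 0.169). The acute-phase genes, which IL-6 induces in liver, had 14 of 19 tested. Of these, Saa2, Fgb and Fgg entered only because the propolis arrays measured them well above background, so no median or count is drawn from the list. Saa2 encodes a serum amyloid protein, and its probe signal may include closely similar serum amyloid genes. Saa2 passed in limma (adjusted p = 0.00975), but that p rests on vehicle signals not well above background, and no fold is measured. Its propolis mean was 8.89-fold the lowest signal well above background on the vehicle arrays. With normexp background correction the difference was 1.42 on the log2 scale. Saa2 did not pass without vehicle 2 (adjusted p = 0.0602), without propolis 2 (0.0603), on slide 1 alone (0.0588) or with vehicle 2 and vehicle 3 removed (0.255). No vehicle array measured it well above background. It measured -2.02, -2.40 and -2.21 in propolis 1, 2 and 3, against -6.22, -6.37 and -7.40 in vehicle 1, 2 and 3.

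The 20 inducers of IL-6 and their mediators had 19 genes tested, 13 with higher and 6 with lower means, and a median of 0.38. Limma called 0 of them, and 4 were higher at an unadjusted p under 0.05, where 7.24% of all genes were. Il1r1, the receptor through which IL-1 induces IL-6, measured 4.76, 4.25 and 3.57 in propolis 1, 2 and 3, against 2.43, 2.28 and 2.17 in vehicle 1, 2 and 3. Every propolis array was above every vehicle array, and the difference of 1.90 fell short of the threshold (adjusted p = 0.0634). Ptgs2, encoding cyclooxygenase 2, differed by 2.38 (adjusted p = 0.146), Cebpb by 0.87 (adjusted p = 0.385) and the adaptor gene Myd88 by 0.65 (adjusted p = 0.419). Of 14 stromal genes often induced with IL-6, 13 were tested, 8 with higher and 5 with lower means. Their median was 0.67 and the lowest difference -0.43, that of Tnfaip6. Ptgs2 is also among the inducers and Timp1 among the STAT3 targets, so the lists share genes. Limma called 0 of the stromal genes, with 3 higher at an unadjusted p under 0.05, Ptgs2 and Timp1 among them. Cxcl5, a neutrophil chemokine, was at 1.81 (adjusted p = 0.519). The 8 genes that control IL-6 mRNA stability had a median of 0.06, and limma called 0 of them, with 0 at an unadjusted p under 0.05. In this group Zfp36l1 differed by 0.33, Zc3h12a, the Regnase-1 gene, by -0.32, Arid5a by 0.31 and Elavl1 by 0.11.

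Immediate early genes, which tissue digestion can induce, were set beside the family. The 15 measured had a mean of 3.64 to 4.48 in propolis arrays and 3.59 to 4.23 in vehicle arrays, with vehicle 1 at 4.23 the highest of its group, and a median difference of 0.17. Limma called 0, with 1 higher and 1 lower at an unadjusted p under 0.05, namely Ier3 at 1.47 (adjusted p = 0.208) and Egr2 at -1.10 (adjusted p = 0.218). Btg2 was at 0.50 and Hspa1a at 0.54. Their part in the differences of Il6 and Socs3 was not tested.

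Markers of the cells that could carry these transcripts also differed. In such bulk samples, fewer cells of a type and less RNA per cell cannot be told apart. Counts beside each list are of the genes on the array. Mesothelial markers, 10 of 10, had a mean of 1.56 to 2.47 in propolis and -0.32 to 1.57 in vehicle. The highest vehicle mean was on vehicle 3, the array high in intestinal epithelial genes. There the keratin genes Krt19, Krt8 and Krt18 measured 5.24, 4.74 and 4.06, against 1.76, -1.01 and 1.70 on vehicle 1. On vehicle 2 they measured 0.28, -1.96 and 0.16. The source of that signal was not tested. Of the 10 markers, 5 were higher and 0 lower at an unadjusted p under 0.05, and the same numbers stood apart without overlap. In limma 2 rose and 0 fell, namely Bnc1 at 2.87 (adjusted p = 0.0299) and Wt1 at 1.98 (adjusted p = 0.0320). When single arrays were removed, Bnc1 still passed only without vehicle 1 (adjusted p = 0.0448), and Wt1 passed in 0 of 6 settings, with adjusted p from 0.0575 to 0.144. With vehicle 2 and vehicle 3 removed, Bnc1 differed by 2.23 (adjusted p = 0.477) and Wt1 by 1.61 (adjusted p = 0.493). Fibroblast and progenitor markers, 10 of 10, had a mean of 5.26 to 5.58 in propolis and 5.32 to 5.46 in vehicle. Macrophage markers, 9 of 10, had a mean of 4.57 to 4.79 in propolis and 4.25 to 4.75 in vehicle. Neutrophil markers, 9 of 10, ran from -0.70 to 0.26 in propolis and from -1.23 to 0.84 in vehicle, and mast cell markers, 8 of 8, from -1.08 to -0.41 in propolis and from -0.41 to 0.01 in vehicle. The mean of T cell markers, 7 of 8, was 1.18 to 1.93 in propolis and 1.44 to 2.85 in vehicle, and that of B cell markers, 8 of 8, was -3.76 to -2.51 in propolis and -2.90 to 1.00 in vehicle. Endothelial markers, 8 of 8, had a mean of 1.74 to 2.90 in propolis and 2.72 to 3.32 in vehicle. Pericyte and smooth muscle markers, 8 of 8, had one of 1.87 to 3.08 in propolis and 1.84 to 3.02 in vehicle, and adipocyte genes, 8 of 8, one of 1.14 to 1.95 in propolis and 2.13 to 2.94 in vehicle. In each of these marker lists other than the mesothelial one limma called 0 genes. At an unadjusted p under 0.05, 5 of 8 adipocyte genes and 5 of 7 tested mast cell markers were lower, and in each list 5 were lower without overlap. By the same p threshold 3 B cell, 2 endothelial, 1 neutrophil and 1 pericyte or smooth muscle marker were lower. Higher by it were 3 fibroblast and 1 macrophage marker, and 0 T cell markers were either. Over all genes, 7.24% were higher and 4.48% lower at that p, and 10.8% were higher and 6.62% lower without overlap. The part of these cells in the differences of the IL-6 family was not tested.

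The 5 named genes whose levels over the 6 arrays were most like those of Il6 were Slc39a8, a zinc transporter gene (Pearson r = 0.995), Hdc, which makes histamine (r = 0.984), the aggrecanase gene Adamts4 (r = 0.981), Ier3 (r = 0.979) and Stbd1 (r = 0.976). These genes were ranked on the same 6 arrays and share their scaling, so the values are a description. Hdc is also a listed mast cell marker, the 1 of 7 tested with a higher mean, while 6 had lower means. Slc39a8 measured 1.57, 0.85 and 1.09 in propolis 1, 2 and 3, against 1.06, -0.52 and -0.11 in vehicle 1, 2 and 3. As with Il6, propolis 1 was the highest array, vehicle 2 the lowest and vehicle 1 within the propolis range. Differences of the 5 ran from 0.63 to 1.47, and limma called 0 of them.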

How the data were processed

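RNA of 3 propolis and 3 vehicle samples was hybridised to 1-colour Agilent arrays designed on mm9. The deposited scanner files give spot intensity from Feature Extraction 10.7.3.1, per the file headers, background-subtracted by the authors' software. The authors' deposited series table holds log2 values of the same signals. Control spots were left out and the log2 processed signal was centred on each array's 75th percentile. Probes well above background on at least 3 of 6 arrays were kept, and the brightest probe stood for a gene. Symbols came from RefSeq accessions (GRCm38.p6 table). Both groups were fitted with limma 3.58.1 in R 4.3.3 over 25777 genes and transcripts, with Benjamini-Hochberg adjustment. The genes and lists were chosen with earlier results of these data known. Named genes were all 10 family genes, every gene that passed in a list or otherwise up to 4 of lowest p, and the 5 most like Il6, with exceptions stated. The planned normexp alternative used median signals, since the scanner files used here give no mean signal. On simulated data the fit recovered 8.17% of genes changed 2-fold, 55.8% of those changed 4-fold and 86.4% of those changed 16-fold, with 5.22% false calls. The simulated noise was normal, independent between genes and of the same spread on every array. The real arrays had quality weights from 0.292 to 8.28, so these rates need not hold for them. The number of arrays limits the precision, and an exact permutation test of 3 against 3 cannot go below 0.1. A gene that the naming rule picked is not reported here.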

Additional observations from a re-analysis of the deposited data

How the results depend on the processing

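Of the alternatives run, limma called 0 of the 10 family genes in all but array quality weights, where it called 1, Il11 (adjusted p = 0.0358), and Il6 differed by 0.41; those weights ran from 0.292 for propolis 3 to 8.28 for vehicle 1. The number of genes called in the whole table was 106 with no filter on dim probes, 3231 with array weights, 0 on slide 1 alone (5856 at an unadjusted p under 0.05), 11 to 94 with 1 array left out, and 0 without vehicle 2 and vehicle 3 together (1362 at an unadjusted p under 0.05). Of the listed genes 4 were called, Saa2 among them, which entered through the propolis arrays alone. The number was 1 with no filter, 42 with array weights, 0 on slide 1 alone and 0 to 2 with 1 array left out. Removing vehicle 2 and vehicle 3 leaves 1 vehicle array, assumed to vary like the propolis arrays. With replicate number as a block, 73 genes, 2 listed genes and 0 family genes were called, with Il6 at an adjusted p of 0.0890. Deviations of same-numbered samples correlated at 0.04, 0.29 and 0.14, not every sample correlated best with its own number, and nothing shows that the numbers pair the samples. Ctf1 did not pass with no filter (adjusted p = 0.0835), with every probe fitted (0.0505), on slide 1 alone (0.102) or with the replicate block (0.0895). Signs changed for Osm (-0.13) and Il6st (-0.19) with array weights and for Lifr (-0.12) without vehicle 2 and vehicle 3. With 1 array left out, Il6st ran from -0.027 to 0.43 (-0.025 without propolis 3), Il6ra from -0.55 to 0.055 and Lifr from -0.018 to 0.21. Median scaling moved the median of all genes to 0.15, and the family is to be read relative to that. The cause of these changes was not tested.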
